A study of Homo sapiens with 8 samples.

Results

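Mesenchymal-like cells were a minority population in neural cultures grown from the human embryonic stem cell line H1, an established line. They were chosen by measured values: a cell was a member if the deposited matrix gave a value of at least 1 for 5 or more of 8 genes (COL1A1, COL1A2, COL3A1, LUM, DCN, PDGFRB, TWIST1 and POSTN) and 0 for MYOG, MYOD1 and SOX10. The last 3 genes mark skeletal muscle and neural crest or Schwann cells. The rule found 3236 members among 43693 cells, which is 7.41%. Most members fell into sub-clusters that bore the label out, but 892 of them fell into sub-clusters led by neuronal or choroid plexus genes, described further on. Neuron markers were not confined to these, as 1416 members (43.8%) had 3 or more of 8. Counts of called genes are also given without these where that changed them and a fit was possible. Shares of members always include both sub-clusters. The neuronal one held 18.9% of members in 3DFusi and 8.29% in 2DCocu, and the choroid plexus one 2.41% and 30.7%.

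Mesenchymal cells are the loosely packed connective tissue cells of the embryo and of adult stroma. They secrete fibrillar collagens, fibronectin and proteoglycans, and enzymes that they also secrete crosslink these into a matrix that holds and signals to neighbouring cells. In and around the brain they form the meninges, the fibroblasts and mural cells of vessels, and the cartilage and bone of the skull. Many arise from the neural crest or the mesoderm rather than from the neural tube, so they are not part of the neural lineage itself.

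The study measured polyadenylated RNA in single cells of flat (2-D) and three-dimensional (3-D) cultures, barcoded by repeated splitting and pooling. Its design text asks about culture composition and about transcriptional effects of 3 agents, dopamine, cocaine and morphine. The GEO samples were 8 sublibraries of 1 barcoded pool of cells, and every sublibrary lists all treatments together. Groups were therefore read from the culture tag that starts each cell name. There were 46 tags in 9 arrangements: 2DCocu (12 tags, 10414 cells), 2DMono (6 tags, 4842 cells), 3DFusi (10 tags, 9765 cells) and 3DMono (6 tags, 6964 cells) carried treatment tags, while 2DProto2Fjo, 2DProto3Wu, 2DProto4Nic (2 tags each), 3DProto1For and 3DProto2Xia (3 tags each) carried none. In 2DCocu and 3DFusi the treatment tags were AcCoc, AcMor and Vehic, and in 2DMono and 3DMono they were AcDop, AcMor and Vehic. Neither the arrangement names nor the treatment tags are defined in the labels, and no age of the cultures is given. All cultures came from 1 cell line, and each dissociation described in the labels pooled a few organoids. Whether numbered tags were separate cultures is not stated, so each n below counts tags, and p-values measure only the spread between tags, which may be technical. The labels describe papain dissociation for the 3-D cultures. That of the 2-D cultures is not given in the sources used here. Any difference in this step therefore cannot be told apart from the arrangement.

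The members were deeply sampled. Their median total was 18186 expected counts per cell, against 12466 in all other cells, and no cell of the matrix had fewer than 3375 counts or 1006 detected genes. Shares over the 8 sublibraries ran from 6.75% to 8.39% (chi-square 22.8 on 7 degrees of freedom, p = 0.00183). Of the cell barcodes, 2393 occurred in more than 1 sublibrary (4894 cells, of which 380 were members), and 0 occurred under more than 1 tag. Tag and barcode were read from the same cell name, and the 0 is a description, not a check of the tags. Because the rule counts detected genes, it favours deep cells. When every cell was thinned to 5000 counts, 1791 cells met the rule, of which 1725 were members, and 1600 shallower cells (42 members) were left out.

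Among the genes of the rule, which chose the cells and are given as a description only, COL3A1 had a value of 1 or more in 99.0% of members and COL1A1 in 98.4%. COL1A2 was seen in 87.5%, PDGFRB in 78.8%, POSTN in 77.8%, DCN in 68.0%, LUM in 51.9% and TWIST1 in 48.3%. In all other cells these shares lay between 1.49% for LUM and 25.4% for COL1A1. Exactly 5 of the genes were seen in 1123 members, 6 in 1010, 7 in 765 and all 8 in 338. The members just inside the rule, with exactly 5 genes, had a median CPM (counts scaled to a library of 1e6) of 5097 summed over the rule genes, and the 1447 cells just outside it, with 4, had 1225 CPM. A further 197 cells had 5 or more of the genes together with MYOG, MYOD1 or SOX10 and were not members. The sarcomere gene TTN stood at 3631 CPM in those 197 cells and at 40.7 CPM in members.

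Members were present in every arrangement but in very unequal numbers. They made up 26.6% of cells in 3DProto1For (533 members), 14.4% in 3DFusi (1410), 9.91% in 2DProto4Nic (200) and 5.44% in 2DCocu (567). Shares were 4.22% in 3DProto2Xia (125 members), 3.14% in 3DMono (219), 3.10% in 2DMono (150), 1.10% in 2DProto2Fjo (27) and 0.220% in 2DProto3Wu (5). Single tags varied more than arrangements did. In 3DProto1For the tags held 22.6%, 36.7% and 0 members, the last among 331 cells, which allows a share of up to 0.906% by counting error. In 3DProto2Xia all 125 members came from tag 2 (17.1% of its cells), while tag 1 held 0 of 938 (up to 0.320%) and tag 3 held 0 of 1298 (up to 0.231%). The 2 tags of 2DProto4Nic were close to each other at 9.09% and 10.3%.

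**Figure D1:**
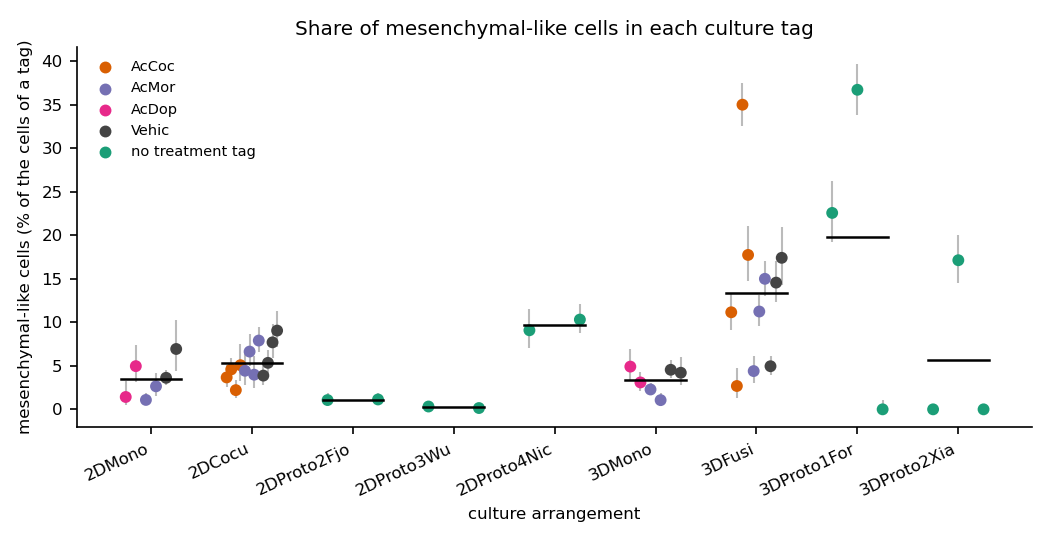
Share of mesenchymal-like cells in each of 46 culture tags (y axis, percent of the cells of a tag) by arrangement (x axis). Points are tags coloured by treatment tag, grey bars are 95% exact binomial intervals that cover counting error only, and black lines are means over tags; 3DFusi spans 2.68% to 35.0% while 2DCocu spans 2.21% to 9.06%.

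In 3DFusi the share per tag ran from 2.68% through a median between the tags at 11.2% and 14.6% to 35.0%, and in 2DCocu from 2.21% to 9.06%. The highest 3DFusi value was tag AcCoc 3. The ranges overlapped, and the means were 13.4% ± 9.33 (SD, n = 10) and 5.37% ± 2.04 (SD, n = 12). The test took the tags as independent, although 3DFusi tags of the same number deviated together in their genes. The difference of 8.05 points gave p = 0.00318 in a two-sided exact permutation test within treatment tags (0.0127 adjusted over the 4 arrangement comparisons). Without any single tag the difference lay between 5.65 and 9.24 points and the exact permutation test still passed (adjusted p 0.00289 to 0.0257). With the 3DFusi tags of a number averaged into 1 value, an alternative added after seeing the data, the difference was 6.26 points and missed the threshold (4 numbers against 12 tags, exact permutation p = 0.0308, adjusted 0.0615). It also did not pass when membership was set after thinning to 5000 counts (4.13 points, adjusted exact permutation p = 0.0600), when 4 rule genes sufficed (7.73 points, 0.0533), or when members with 3 or more neuron markers (5.68 points, 0.0515) or 5 or more (6.42 points, 0.0771) were left out.

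Against 3DMono, the 6 tags of 3DFusi with AcMor or Vehic averaged 11.3% ± 5.47 (SD, n = 6) and the 4 of 3DMono 3.02% ± 1.65 (SD, n = 4). The exact permutation test gave p = 0.0200, adjusted 0.0400. That call was lost without any single 1 of the 10 tags (differences 7.01 to 9.62 points, adjusted exact permutation p 0.0667 to 0.101), a point at which fewer permutations are possible, and also after thinning (3.79 points, 0.0600) and with 3DFusi tags of a number averaged (8.24 points, 0.0615). 3DMono at 3.35% ± 1.49 and 2DMono at 3.45% ± 2.23 (SD, n = 6 each) overlapped throughout, with a difference of -0.0961 points (adjusted exact permutation p = 0.926). In 2DMono the tags were AcDop 1.42% and 4.97%, AcMor 1.08% and 2.65%, and Vehic 3.62% and 6.94%. 2DCocu at 6.12% ± 1.99 (SD, n = 8) and 2DMono at 3.57% ± 2.48 (SD, n = 4) did not differ by this test either (adjusted exact permutation p = 0.101).

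Shares by treatment tag overlapped in the 4 contrasts with Vehic tested, in 3DFusi and 2DCocu, and none passed the test. In 3DFusi the AcCoc tags held 11.2%, 2.68%, 35.0% and 17.8% members, the AcMor tags 4.40%, 11.2% and 15.01%, and the Vehic tags 4.96%, 14.6% and 17.4%. In 2DCocu the AcCoc tags held 3.67%, 4.59%, 2.21% and 5.07%, the AcMor tags 4.44%, 6.64%, 3.98% and 7.91%, and the Vehic tags 3.88%, 5.34%, 7.70% and 9.06%. Since 3DFusi tags of a number deviated together, they were also compared number by number. AcCoc was above Vehic in 3 of 3 pairs (by 0.331 to 20.5 points, mean 8.998), with AcCoc 2 left without a partner, and AcMor was below Vehic in 3 of 3 (mean difference -2.10 points, from -3.32 to -0.559). Each gave an exact sign-flip permutation p of 0.25, the smallest that 3 pairs allow, so this design cannot call either. The signs also depended on the membership rule. With 4 rule genes AcCoc 4 lay below Vehic 4 (23.3% against 23.7%). Without members of 5 or more neuron markers AcCoc 4 again lay below Vehic 4 (15.7% against 16.9%), and AcMor 1 lay above Vehic 1 (3.23% against 2.02%). The largest contrast in the 2-D cultures was AcCoc against Vehic, 3.89% ± 1.26 against 6.50% ± 2.32 (SD, n = 4 each; exact permutation p = 0.114, adjusted 0.457), and the other 3 unpaired contrasts had an adjusted exact permutation p of 0.714. Every AcCoc tag of 2DCocu lay below the Vehic tag of its number, but no paired test was run there. With 6 rule genes AcCoc 2 lay above Vehic 2 (3.09% against 2.81%). Without members of 3 or more neuron markers AcCoc 1 lay above Vehic 1 (1.67% against 1.64%). With 3 tags against 3, as for AcMor in 3DFusi, the smallest p the test allows is 0.1.

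Beyond the rule genes, the members had the RNA of matrix-secreting cells. The values that follow describe the cells the rule chose and are given with no test. Over all members COL6A3, a chain of the microfibrillar collagen VI, stood at 616 CPM against 18.2 CPM in all other cells, and it was higher in members in 33 of 33 tags with at least 20 members. Fibronectin (FN1) stood at 2989 against 157 CPM, the collagen V chain COL5A1 at 827 against 84.0 CPM, and the collagen XVI chain COL16A1 at 117 against 9.73 CPM. The small leucine-rich proteoglycans OGN (62.6 against 2.15 CPM) and BGN (56.2 against 2.02 CPM), which bind collagen fibrils, were high as well. ITGA11, a collagen-binding integrin subunit of fibroblasts, was at 234 against 16.7 CPM and FAP, a fibroblast surface protease, at 64.1 against 4.41 CPM.

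Receptors, growth factors and regulators of mesenchyme followed. PDGFRA, the platelet-derived growth factor receptor of fibroblast precursors, was at 80.9 against 6.18 CPM. EDNRA, an endothelin receptor, was at 166 against 10.8 CPM, and the fetal growth factor IGF2 at 1694 against 142 CPM. Of the transcription factors, PRRX1, which marks limb, skull and fibroblast mesenchyme, stood at 210 against 17.7 CPM, TBX15 at 72.0 against 5.52 CPM and FLI1 at 51.3 against 3.10 CPM. Others with large folds at 50 CPM or more were SULT1E1 (55.0 against 2.46 CPM), KIAA1755 (113 against 7.44), CYP1B1 (97.4 against 6.39), PLA2R1 (79.5 against 6.54) and CPED1 (88.6 against 7.72). Each of these genes was higher in members in 31 to 33 of 33 tags.

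Gene lists gave the same description. The share of all genes that were higher in members is not given here, so these counts have no background beside them. All 18 listed collagens outside the rule were higher in members, 17 of them at least 2-fold, as were 23 of 24 matrix glycoproteins and proteoglycans (20 at least 2-fold) and all 20 genes of matrix crosslinking and remodelling (16). Of 31 mesenchymal transcription factors, 26 were higher and 19 at least 2-fold. Immediate-early genes, whose RNA appears within minutes of a stimulus, were higher for 17 of 17, with 12 at least 2-fold (a summed 1062 against 382 CPM). These sums pool all arrangements, over which members and other cells were spread unequally, and how much of the gap this makes up was not tested. HOX genes, which give cells a position along the trunk, were higher in members for 34 of 39 but at least 2-fold for 3, at a summed 45.6 against 20.4 CPM. The sum varied by arrangement. It was 155 CPM in members of 3DProto1For (128 in other cells), 116 in 3DProto2Xia (7.13, with 16 genes at least 2-fold higher), 51.0 in 3DFusi (61.4) and 11.04 in 2DCocu (6.94).

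Markers of several other cell types summed to low levels in members, though the endothelial, macrophage, epithelial and neural crest sums were above those of other cells. Summed over 8 endothelial markers the level was 20.2 CPM (11.2 in other cells), with PECAM1 at 1.16 and CDH5 at 3.12. The 8 macrophage and microglia markers summed to 21.1 CPM (13.7), with C1QA at 0 and AIF1 at 0.107. The 8 epithelial markers summed to 13.9 CPM (12.5), with EPCAM at 1.04, and the 9 neural crest and Schwann markers to 24.1 CPM (18.5), with SOX10 at 0 by the rule. The genes named make up little of these sums. Other endothelial, macrophage and epithelial markers were at least 2-fold higher in some sub-clusters than in the other members. These were FLT1 (sub-cluster 4), CLDN5 (8), CSF1R (2), CD68 (6), KRT8 (5 and 9) and KRT18 (9). The 8 neural progenitor markers summed to 136 CPM (196 in other cells). Neuron markers, in contrast, summed to 1255 CPM in members (3189 CPM in other cells), astrocyte markers to 683 CPM (639) and choroid plexus markers to 311 CPM (292). Members with 3 or more of 8 neuron markers numbered 1416 (43.8%). Those with 5 or more numbered 625 (19.3%). They had a median of 46100 counts, against 15441 in the remaining members, and a median of 3061 CPM over the rule genes, against 8529. No doublet caller was run, and whether these were pairs of cells was not tested. Such members were left out as an alternative.

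Genes for the targets of the drugs were barely present. The 16 listed dopamine and opioid receptors and monoamine transporters summed to 35.0 CPM in members and 46.4 CPM in other cells. SLC6A4, the serotonin transporter, stood at 6.17 CPM in members, the opioid receptor gene OPRM1 at 4.31, the dopamine receptor gene DRD4 at 2.82, the dopamine transporter gene SLC6A3 at 0.971 and DRD5 at 0. None of the 16 passed the filter on low counts in either comparison of 3-D with 2-D cultures, or in the drug comparisons of 2DCocu. In both drug comparisons of 3DFusi 7 of them passed the filter, and in 3DFusi against 3DMono 4 did. In each of these comparisons 0 were called.

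The members clustered into 9 sub-clusters on their own expression (16 at a finer setting). Since the same genes formed the sub-clusters, their leading genes describe them and are not tested. Several of these genes also differed between arrangements, so the counts of cells by arrangement say where each sub-cluster lay and are not a comparison of proportions.

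Sub-cluster 3 (534 cells, 16.5% of members) was meningeal fibroblast-like. It held 7 of 10 markers fixed for that type, among them FOXC1 (174 CPM), a regulator that meningeal development requires, the retinoic acid synthesising enzyme ALDH1A2 (105), PTGDS (98.2) and the chemokine CXCL12 (143). It also held 3 of 8 astrocyte markers (SLC1A3, AGT and GJA1; the list summed to 1594 CPM against 562 in the other members) and 3 of 9 neural crest and Schwann markers (TFAP2A, TFAP2B and NGFR; 47.1 against 21.04). Among its leading genes were LINC02147 (422 CPM against 40.9 in the other members), the GABA and taurine transporter SLC6A13 (264 against 25.7), SIDT1 (160 against 16.7), RANBP3L (199.8 against 26.6) and BMP5 (217 against 32.6). Of its cells 412 lay in 3DFusi and 97 in 3DMono, against 0 in 2DCocu and 3 in 2DMono.

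Sub-cluster 7 (236 cells, 7.29%) was cartilage-like. It held 14 of 15 chondrogenic markers. The fibrillar collagen of cartilage COL2A1 stood at 1828 CPM against 12.7 in the other members, the proteoglycan ACAN at 844 against 5.43, COL9A1 at 1193 against 9.23, COL11A2 at 721 against 9.43, EPYC at 591 against 5.26 and ITIH6 at 179 against 1.34. All but 8 of its cells lay in 3DFusi (228), and 54.2% came from tag AcCoc 3 alone. By tag the 3DFusi counts were 6, 0, 128 and 12 for AcCoc 1 to 4, 0, 18 and 38 for AcMor 1, 3 and 4, and 0, 0 and 26 for Vehic 1, 3 and 4. The tags numbered 1 held few or none. So did AcCoc 2, the only tag numbered 2 (0 of 11 members), and Vehic 3 (0 of 131).

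Sub-cluster 6 (298 cells, 9.21%) was led by VIT (104 CPM against 2.79), CCDC178 (242 against 19.1), the transcription factors EBF2 (641 against 78.9) and EBF3 (453 against 75.4), ADAMTSL3 (246 against 31.7) and EMCN (201 against 30.9). PRRX1 reached 762 CPM here. Of its cells 283 lay in 3DFusi and 142 in tag AcCoc 3 (47.7%). Sub-cluster 2 (551 cells, 17.0%) was led by TTN (282 CPM against 19.9), smooth muscle myosin MYH11 (108 against 10), the calcium-activated chloride channel ANO1 (146 against 16.5), KANK4 (101 against 13.5), IGF2 (7913 against 1160) and TWIST2 (112 against 16.6), and held 3 of 10 mural markers (ACTA2, MYH11 and ABCC9). It held 338 of the 533 members of 3DProto1For and 84 of the 125 of 3DProto2Xia. Neither sub-cluster was given a type name.

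Sub-cluster 4 (440 cells, 13.6%) was the largest sub-cluster in 2DCocu and 2DMono, with 345 cells in 2DCocu, 72 in 2DMono and 0 in any 3-D arrangement. It was led by the receptor CMKLR1 (103 CPM against 4.31), the basement membrane protein NTN4 (184 against 11.1), the membrane repair gene DYSF (141 against 10.5), AHNAK2 (301 against 27.4), ATP10A (250 against 26.2) and GLIS1 (208 against 24.5), and FN1 reached 11084 CPM in it. Sub-cluster 9 (118 cells, 3.65%) was led by IGFBP3 (512 CPM against 40.1), SCG2 (239 against 22.2), ITGA11 (1632 against 158), the metalloprotease PAPPA (1969 against 193), STC2 (224 against 22.3) and MCTP2 (261 against 26.9). Of its cells 113 came from 2DProto4Nic, and 69.5% from tag 2 of that arrangement. Sub-cluster 8 (167 cells, 5.16%) was cycling, with 8 of 8 cycling markers, MKI67 at 970 CPM against 73 and TOP2A at 727 against 61.1. Its cells lay in 3DFusi (71), 3DProto1For (64), 3DMono (20) and 3DProto2Xia (12).

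The remaining sub-clusters went against the mesenchymal label. Sub-cluster 1 (556 cells, 17.2%) was led by the neuronal genes GRIK3 (172 CPM against 5.91), DLX6-AS1 (207 against 8.54), MYT1L (571 against 29.2), DLGAP2 (132 against 6.78), OPCML (886 against 56.1) and SRRM4 (191 against 11.7). It held 7 of 8 neuron markers, 82.7% of its cells had 5 or more of these, and its median rule-gene level of 2943 CPM was among the lowest. It lay in 41 tags and made up 71 of the 99 members of 3DFusi AcCoc 1 and 49 of the 81 of 3DFusi Vehic 1. Sub-cluster 5 (336 cells, 10.4%) was led by choroid plexus genes: the serotonin receptor HTR2C (1289 CPM against 67.1), the roof plate factor LMX1A (239.8 against 20.6), OTX2-AS1 (224 against 21.6), RBM47 (241 against 24.4), RSPO2 (524 against 57.1) and the thyroxine carrier TTR (112 against 13.5). Its median rule-gene level was 2373 CPM. Of the 8 choroid plexus markers it held 4 (TTR, CLIC6, HTR2C and OTX2). It also held 2 of 8 neural progenitor markers (PAX6 and NES), 2 of 8 astrocyte markers (GFAP and ALDH1L1) and 2 of 10 mural markers (ACTA2 and TAGLN). It held 174 cells of 2DCocu, 57 of 2DMono and 34 of 3DFusi. Leaving out both sub-clusters kept 2344 members, a choice made after seeing the data.

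**Figure D2:**
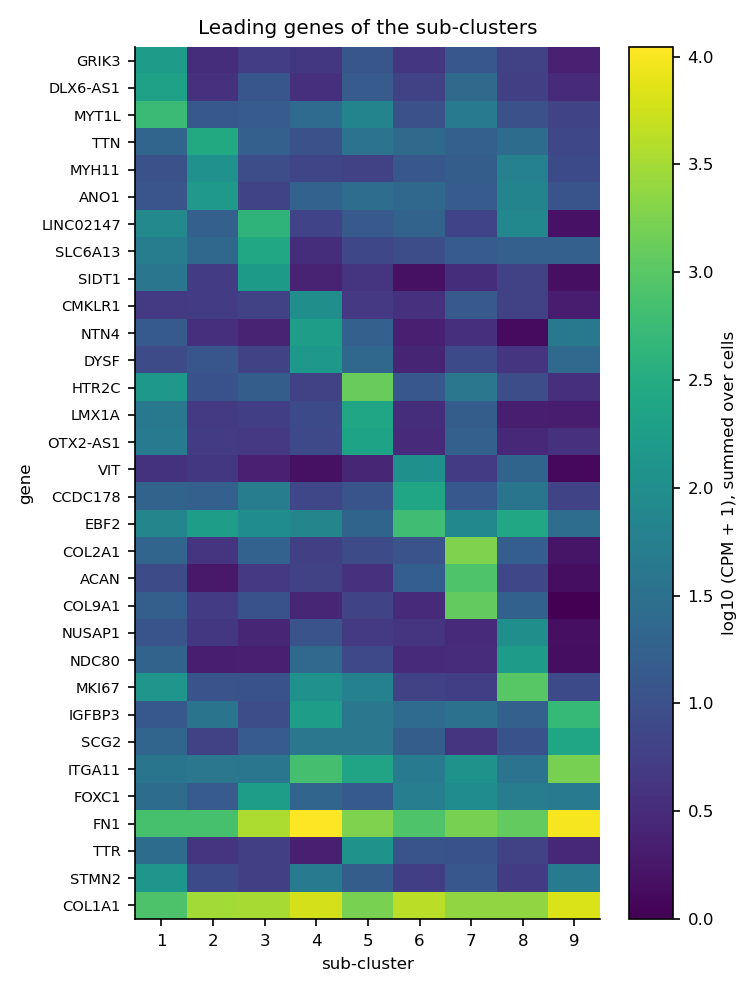
Level of leading genes (y axis) in 9 sub-clusters of the mesenchymal-like cells (x axis), as log10 of CPM + 1 summed over the cells of a sub-cluster. COL2A1 and ACAN are bright in sub-cluster 7 alone, MKI67 is brightest in sub-cluster 8, and COL1A1 is at 816 CPM or more in every sub-cluster.

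**Figure D3:**
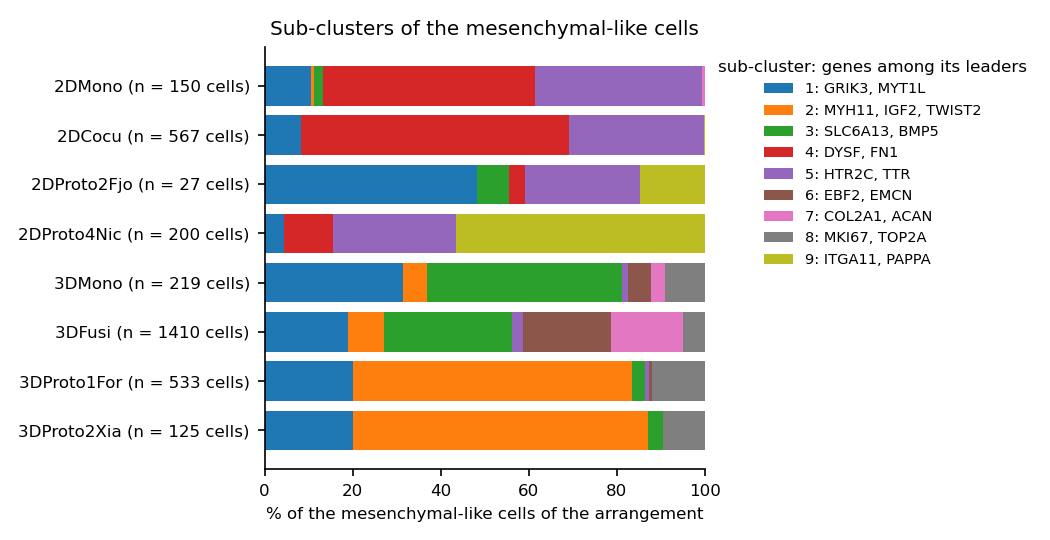
Share of the mesenchymal-like cells of each arrangement with at least 20 members (x axis, percent; y axis, arrangement with its number of members) that fell into each of 9 sub-clusters (colours). Sub-cluster 4 fills much of the 2DCocu and 2DMono bars and is absent from the 3-D bars, but genes that formed the sub-clusters also differed between arrangements, so bar lengths are a description.

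Genes were tested between arrangements on counts summed over the members of a tag, for tags with at least 20 members (summed totals of 548978 to 9131370 counts), with edgeR's quasi-likelihood test and the treatment tag as a covariate. The comparison of 3DFusi (9 tags) with 2DCocu (11 tags) asked how members differed between a 3-D and a 2-D arrangement. Members of 3DFusi had more RNA of immediate-early genes, of sterol synthesis genes and of single genes from other lists or none, among them CXCL12, BMP5, HGF and SLC6A13. They had less RNA of fibronectin, of COL4A1, COL4A2, COL5A1 and the listed collagen VI chains, and of most listed cytoskeletal and contractile genes. At an adjusted p of 0.05, 4536 of 12273 genes differed, which is 37% (18.2% higher and 18.8% lower in 3DFusi), so a list with about that share of called genes does not stand out. With sub-clusters 1 and 5 left out 3875 genes differed, and with only Vehic tags, where fewer tags enter, 991. The fit took the tags as independent, although 3DFusi tags of the same number deviated together, so its p-values may be too small. With 3DFusi tags of the same number summed, and no treatment covariate, 2901 of 12972 genes were called. Of the 32 genes named by rule, 31 had a value there and all 31 kept their call.

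Of the secreted factors, the chemokine CXCL12 ranged over the tags of 3DFusi from 40.03 through a median of 71.7 to 123 CPM, and over those of 2DCocu from 0 through 1.16 to 2.64 CPM. The groups did not overlap, and CXCL12 was higher by 5.54 on the log2 scale (SE 0.34, adjusted p = 3.46e-10). BMP5, a bone morphogenetic protein, ran from 46.8 through 86.9 to 138 CPM in 3DFusi and from 0 through 3.78 to 10.6 CPM in 2DCocu (log2 difference 4.26, SE 0.26, adjusted p = 3.49e-10). HGF, a growth factor that mesenchyme sends to epithelia and neurons, ran from 15.2 through 33.0 to 58.3 CPM against 0 through 0.839 to 5.69 CPM (4.33). Every 3DFusi tag lay above every 2DCocu tag for these 3 genes.

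In the list of growth factors and receptors 7 of 22 tested genes rose and 7 fell, with a median log2 difference of 0.08 against 0.03 over all genes. Besides CXCL12 and HGF, the receptor PDGFRA rose (61.8 to 247 CPM in 3DFusi against 3.95 to 21.4 in 2DCocu, log2 difference 3.52), as did the heparin-binding factors PTN (2.22) and MDK (2.85). IGFBP7, a secreted binding protein, fell from a median of 142 CPM in 2DCocu to 27.6 CPM (log2 difference -2.66), and the angiogenic factor VEGFA fell (-1.20). IGF2 rose by 2.18, though the tags overlapped.

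In the list of transforming growth factor beta and BMP signalling, 3 of 16 tested genes rose and 7 fell (median -0.34). BMP5 and the coreceptor TGFBR3 rose, TGFBR3 from a median of 34.4 CPM in 2DCocu to 190.1 CPM in 3DFusi (log2 difference 2.22, groups overlapping between 62.9 and 75.1 CPM). The ligands TGFB1 (-0.74) and INHBA (-2.16), the receptors TGFBR1, TGFBR2 and BMPR2, the inhibitor SMAD7 and the target CCN2 (-1.66) fell. In the WNT list 7 of 20 rose and 5 fell (median 0.23). The secreted antagonist SFRP1 ran from 37.9 through 57.1 to 179 CPM against 0 through 5.03 to 10.8 CPM (log2 difference 3.43), and SFRP2 rose by 2.25, a call lost with Vehic tags alone (1.73). WNT5B (-1.17) and the WNT agonist RSPO2 (-1.62), a leading gene of sub-cluster 5, fell.

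Matrix genes were called in both directions. Of 18 collagens 4 rose and 8 fell, with a median of -0.51. The basement membrane chain COL4A1 ran from 192 through 272 to 426 CPM in 3DFusi and from 533 through 798 to 1220 CPM in 2DCocu, without overlap (log2 difference -1.57). COL6A3 fell by 1.72 and COL5A1 by 1.45 on the log2 scale. COL15A1, a collagen of the zone next to basement membranes, rose from a median of 23.2 to 139 CPM with no overlap (2.23). COL14A1, which lies on fibril surfaces, rose by 1.93.

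COL2A1 rose by 6.06 (SE 0.83, adjusted p = 1.09e-05), but it was uneven. It ran from 1.97 through 185 to 674 CPM in 3DFusi and from 0 through 2.57 to 7.91 CPM in 2DCocu, so the lowest 3DFusi tag lay inside the 2DCocu range. The cartilage-like sub-cluster, which holds most COL2A1 RNA, was itself found in 6 of the 10 3DFusi tags, as given above. Of the other chondrogenic markers COL9A1 rose (5.02), while COL11A1 (0.54, adjusted p = 0.324), SOX5 (0.24, 0.553) and SOX6 (0.44, 0.193) did not pass.

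Of 22 tested matrix glycoproteins and proteoglycans 5 rose and 6 fell (median 0.03). FN1 ran from 993 through 1444 to 2126 CPM in 3DFusi and from 2632 through 7127 to 8960 CPM in 2DCocu, so that every 2DCocu tag was higher (log2 difference -2.17, SE 0.21, adjusted p = 1.01e-07). The fibrillins FBN1 and FBN2 (-0.84), which build microfibrils, and elastin (ELN, -1.02) also fell. OGN ran from 59.9 to 147 CPM against 1.73 to 20.7 CPM (3.42), and the hyaluronan-binding proteoglycan VCAN from 976 to 2259 against 393 to 777 CPM (1.38), both without overlap. Of the enzymes that crosslink and process the matrix, 5 of 18 rose and 5 fell. LOXL1, which crosslinks elastin, ran from 5.87 to 20.1 CPM against 30.2 to 91.7 CPM (-2.25), and LOX (-1.15) and LOXL2 (-1.07) fell with it. PCOLCE, which speeds the maturation of procollagen, rose from a median of 9.18 to 35.6 CPM (1.76), with overlapping tags.

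Contractile and cytoskeletal genes were lower in 3DFusi for 8 of 10 tested, and 1 rose (median -0.93). The actin-binding TAGLN2 ran from 1.32 through 2.89 to 7.54 CPM in 3DFusi and from 10.9 through 19.1 to 27.8 CPM in 2DCocu (log2 difference -2.69). CALD1, which regulates actomyosin, ran from 137 through 267 to 457 CPM against 451 through 724 to 1335 CPM (-1.69), and its groups just met. ACTN1 fell by 1.56, TPM1 by 0.88 and ACTA2 by 0.97 on the log2 scale, while MYH11, a leading gene of sub-cluster 2, rose by 1.49. Leaving out any 1 tag left 6 to 8 genes lower (6 without 2DCocu Vehic 1).

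Of 15 mesenchymal transcription factors tested 2 rose and 2 fell (median 0.30), and calls over all genes were 37%. FOXC1 ran from 43.4 through 76.7 to 125 CPM in 3DFusi and from 2.13 through 8.39 to 20.8 CPM in 2DCocu (log2 difference 2.70, no overlap). EBF2, which leads sub-cluster 6, rose from a median of 34.2 to 162 CPM (1.86, overlapping). That call was lost with 6 rule genes required, with Vehic tags alone and without members that had 3 or more neuron markers. TWIST2 fell by 1.30 and ZEB1 by 0.71 on the log2 scale. PRRX1 (0.15, adjusted p = 0.739) and TBX15 (0.68, 0.121) did not pass. Of 39 HOX genes only HOXD3 passed the filter on low counts, and it was higher by 1.44 with overlapping tags.

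Immediate-early genes moved one way: 12 of 14 tested rose and 0 fell, with a median of 2.48 against 0.03 over all genes. FOS, a subunit of the AP-1 transcription factor, ran from 132 through 231 to 420 CPM in 3DFusi and from 3.95 through 9.41 to 22.5 CPM in 2DCocu (log2 difference 4.46, SE 0.26, adjusted p = 3.06e-10). FOSB ran from 27.4 through 118 to 313 CPM against 0.791 through 3.73 to 18.2 CPM (4.24). The 2 arrangements did not overlap for either gene, nor for JUN (2.75), NR4A1 (3.43), ATF3 (2.19) or ZFP36 (3.04). Leaving out any 1 tag left 11 to 13 genes higher, leaving out sub-clusters 1 and 5 left 11 of 14, and Vehic tags alone gave 9 of 15. Dissociation is described for the 3-D cultures alone, so any difference in that step cannot be told apart from this contrast.

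EGR1, another immediate-early transcription factor, is shown because its promoter is a standard example of a response element for such genes. The bases just before its start in RefSeq (GRCh38.p14, chr5:138465229-138465478, plus strand) are given 5′ to 3′, with capitals marking the 2 CArG boxes, the motif that serum response factor binds.
EGR1 promoter: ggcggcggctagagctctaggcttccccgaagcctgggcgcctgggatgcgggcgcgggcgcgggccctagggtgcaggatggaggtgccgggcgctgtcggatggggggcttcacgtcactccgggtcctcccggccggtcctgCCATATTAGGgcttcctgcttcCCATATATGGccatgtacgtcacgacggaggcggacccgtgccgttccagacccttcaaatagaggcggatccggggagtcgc
The boxes begin at -105 and -83 from the start. On both strands of this window, 1 of the 15 matched immediate-early genes held a CArG box, against 1.16% of 35116 RefSeq promoters, and a match is a description of letters only. EGR1, singled out after its values were seen, ran from 147 through 328 to 516 CPM in 3DFusi and from 24.3 through 50.7 to 151 CPM in 2DCocu (log2 difference 2.47, SE 0.26, adjusted p = 4.91e-07). Its highest 2DCocu tag just reached the lowest 3DFusi tag.

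Sterol synthesis genes also moved one way, with 8 of 13 higher, 0 lower and a median of 0.84. HMGCS1, which makes the precursor of mevalonate, ran from 220 through 303 to 581 CPM in 3DFusi and from 45.8 through 78.6 to 134 CPM in 2DCocu (log2 difference 1.96). IDI1, an isomerase of the same pathway, ran from 50.7 through 85.2 to 144 CPM against 9.34 through 16.6 to 21.8 CPM (2.42). Neither gene overlapped between the arrangements. The count was 8 without any single tag and was 5 with Vehic tags alone. Of 15 tested hypoxia and glycolysis genes 3 rose and 5 fell (median -0.04). The glucose transporter SLC2A1 ran from 10.4 through 11.8 to 25.3 CPM against 25.4 through 86.5 to 182 CPM (-2.69), hexokinase HK2 fell by 1.11, and the glycolytic TPI1 rose by 1.60, a call lost with Vehic tags alone (1.27).

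Over all genes, the largest rises without overlap were CXCL12, FENDRR, TNN, SLC6A13 and LINC02147. FENDRR, a long noncoding RNA of lateral mesoderm, ran from 6.59 to 39.4 CPM in 3DFusi against 0 to 1.39 CPM in 2DCocu (log2 difference 5.23), and the matrix protein gene TNN from 9.46 to 36.9 against 0 to 3.47 CPM (4.65). SLC6A13 ran from 52.5 to 116 against 0 to 13.9 CPM (4.59) and LINC02147 from 86.5 to 339 against 0.622 to 14.5 CPM (4.51). Both lead sub-cluster 3. The largest falls were LINC02211 (-6.57), the folate enzyme ALDH1L1 (-6.08), LSP1P4 (-6.02), DYSF (-5.29) and CDKN2B-AS1 (-4.72). DYSF ran from 0.867 to 6.66 CPM against 40.4 to 273 CPM. None of the genes named by rule for this comparison lost its call when any single tag was left out. How much of each change lay in the makeup of sub-clusters and how much within like cells was not tested.

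**Figure D4:**
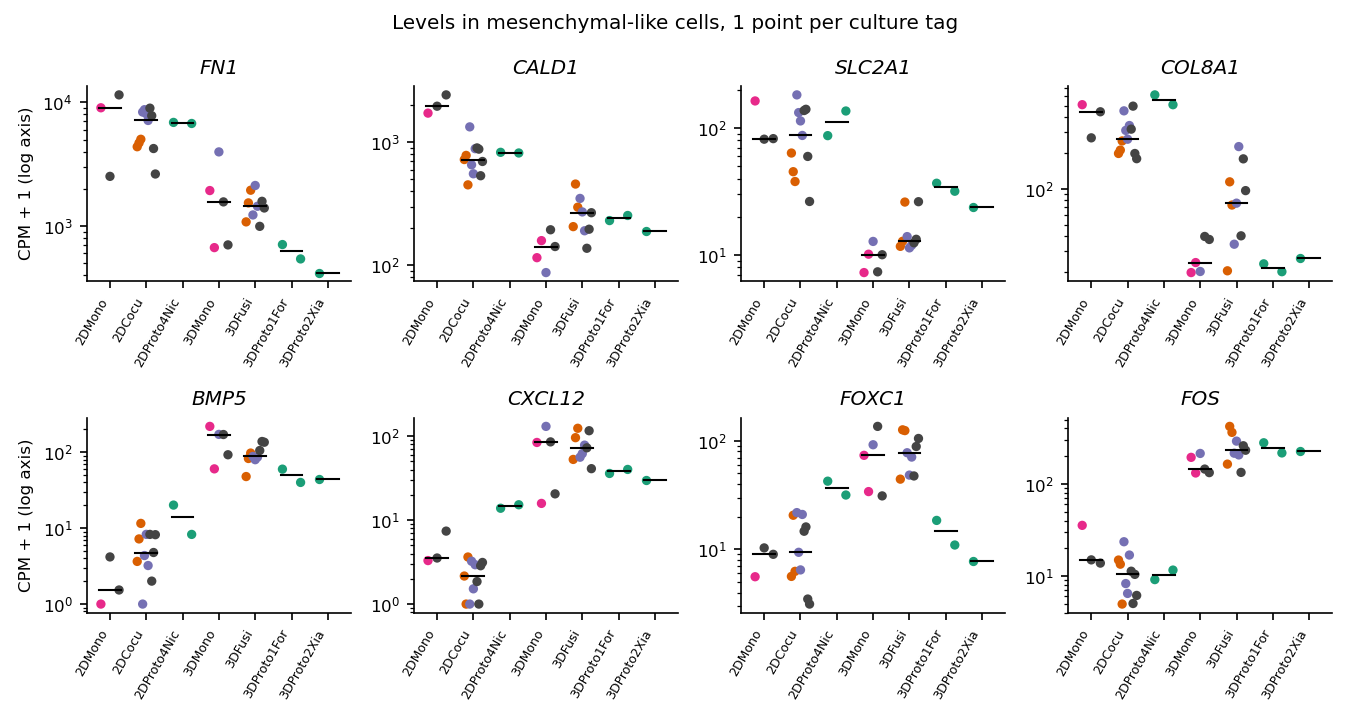
Level of 8 genes in mesenchymal-like cells of each tag with at least 20 members (y axis, CPM + 1 on a log axis) by arrangement (x axis). Points are tags coloured by treatment tag as in the plot of shares and black lines are medians; FN1 and CALD1 sit higher in 2DMono and 2DCocu, and BMP5, CXCL12, FOXC1 and FOS higher in 3DMono and 3DFusi.

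To see which differences belonged to the members, the arrangement difference in members was compared with that in all other cells of the same tags, a test added after seeing the data. It differed for 2945 of 19942 genes (14.8%; 1791 more positive in members, 1154 more negative), and for 4565 with sub-clusters 1 and 5 left out. In other cells the log2 difference was 0.37 for CXCL12 (adjusted p = 0.291) and 0.64 for BMP5 (0.106), neither called. The difference between members and other cells was 5.43 for CXCL12 (adjusted p = 6.75e-09) and 3.93 for BMP5 (1.36e-05). HGF and SLC6A13 each rose by 1.27 in other cells, 3.22 and 3.42 less than in members. FN1 fell by 0.90 in other cells, less than in members (-1.27, adjusted p = 0.0160), and DYSF by 1.06 (-4.09). The lists with many falls went both ways in this test. Of 13 contractile genes 2 were more negative in members, 3 more positive and 8 not called. Of 18 collagens 3 were more negative and 6 more positive. Of 26 transforming growth factor beta and BMP genes 3 were more negative and 8 more positive.

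FOS, the leading immediate-early gene, was higher in other cells as well, but by less. FOS rose there by 2.59, a difference of 1.93 (adjusted p = 1.35e-06). For 9 of 17 genes of the list the arrangement difference was more positive in members, and for 0 more negative. The same held for 10 of 13 sterol genes and 0, among them HMGCS1 (0.65 in other cells, difference 1.40). For other genes the difference between the classes did not pass. ALDH1L1 fell by 5.53 in other cells (difference -0.43, adjusted p = 0.654), LINC02211 by 6.87 (0.36, 0.819), and FOXC1 (0.70, 0.133), OGN (0.86, 0.158) and PDGFRA (0.11, 0.901) did not pass either.

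**Figure D5:**
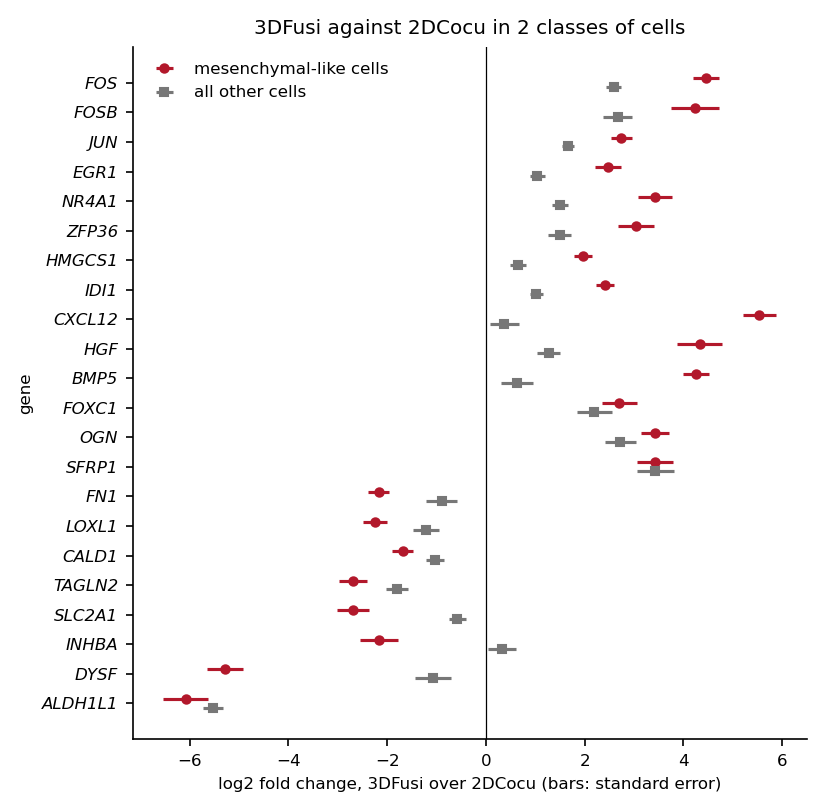
Log2 fold change of 3DFusi over 2DCocu (x axis; bars are standard errors) for 22 genes (y axis) in mesenchymal-like cells (red circles) and all other cells (grey squares). CXCL12 is at 5.54 in members and 0.37 in other cells, FOS at 4.46 and 2.59, while ALDH1L1 is at -6.08 and -5.53.

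The comparison of 3DMono (5 tags: AcDop 1, AcDop 2, AcMor 1, Vehic 1 and Vehic 2) with 2DMono (3 tags: AcDop 2, Vehic 1 and Vehic 2) put the same question in arrangements that share no tag with the one above. 3DMono AcMor 1 was the only AcMor tag in this fit, so the treatment covariate took it up and the fold changes did not rest on it. Without it 1473 genes were called. Its levels are listed below, also in statements of overlap, as a description. Members of 3DMono had less RNA of the contractile genes tested and of some matrix and transforming growth factor beta genes, and more of BMP5, SLC6A13, EMCN and several immediate-early genes. With 22 to 71 members a tag, 1480 of 10321 genes differed in edgeR's test, which is 14.3% (5.67% higher, 8.67% lower). The count fell to 584 without 2DMono AcDop 2, to 913 without 3DMono Vehic 1 and to 597 with Vehic tags alone, and it was 3006 with 4 rule genes, where more tags could enter. 2DMono AcDop 2 was the only AcDop tag of 2DMono in the fit. Leaving it out also took the AcDop tags of 3DMono out of the contrast, so calls lost without it do not speak to its values alone.

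All 8 contractile genes tested were lower, with a median log2 difference of -2.79 against 0.02 over all genes. CALD1 stood at 115, 158, 86.5, 194 and 142 CPM in the 3DMono tags in the order given, and at 1727, 1966 and 2430 CPM in the 2DMono tags (log2 difference -3.94, SE 0.25, adjusted p = 0.000107). TAGLN, an early smooth muscle gene, stood at 4.17, 4.56, 1.13, 3.33 and 2.26 CPM against 38.2, 129 and 20.4 CPM (-4.40). Every 2DMono tag was well above every 3DMono tag for both. ACTA2 (-3.81), TPM1 (-2.71) and ACTN1 (-2.86) fell too. Leaving out any 1 tag left 6 to 9 genes of the list lower (6 without 3DMono Vehic 1), and 5 of 7 were lower without members that had 5 or more neuron markers.

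Some matrix genes were lower too. Of 17 collagens tested 7 fell and 2 rose (median -1.19). COL8A1, a network-forming collagen, stood at 18.8, 22.99, 19.2, 38.8 and 36.5 CPM against 508, 267 and 443 CPM (log2 difference -4.03). COL14A1 moved the other way, at 103, 182, 57.7, 97.9 and 198 CPM against 3.45, 11.3 and 14.4 CPM (3.66). Of 20 glycoproteins and proteoglycans 10 fell and only OGN rose (median -1.29). FBLN5, an elastic fibre protein, stood at 8.75, 14.8, 9.05, 18.7 and 6.03 CPM against 220, 213 and 152 CPM (-4.18), and elastin itself fell by 3.71 on the log2 scale. THBS1, an adhesive glycoprotein, fell by 3.27. FN1 fell by 2.92, with overlap: its lowest 2DMono tag, Vehic 1 at 2518 CPM, lay below its highest 3DMono tag, AcMor 1 at 3971 CPM. Of 18 crosslinking genes 8 fell and 0 rose, among them LOX (-2.60) and P4HA2 (-2.32). Without 2DMono AcDop 2, which leaves the contrast to the Vehic tags, 5 collagens, 4 glycoproteins and 2 crosslinking genes were lower. LOX was then not called (log2 difference -2.22, adjusted p = 0.134), nor was it without 2DMono Vehic 2 (-2.34, 0.0508).

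In the transforming growth factor beta and BMP list, 10 of 17 tested genes fell and 2 rose (median -1.22); without 2DMono AcDop 2 the lower count was 4, and without members that had 5 or more neuron markers it was 5. BMP5 stood at 218, 59.4, 171, 170 and 91.7 CPM in 3DMono against 0, 3.18 and 0.533 CPM in 2DMono (log2 difference 5.66). CCN2, a matricellular target of the pathway, stood at 5.83, 7.46, 0.905, 3.17 and 34.6 CPM against 234, 454 and 99.2 CPM (-4.84), and lost its call without 2DMono AcDop 2 (adjusted p = 0.0925) or 2DMono Vehic 1 (0.0529). INHBA (-2.43) and TGFBR2 (-1.20) fell.

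Of 18 WNT genes 2 rose and 6 fell, or 3 without 2DMono AcDop 2. DKK2, a secreted antagonist, stood at 80.1, 55.7, 16.4, 36.1 and 40.8 CPM against 247, 212 and 237 CPM (-2.54), and SFRP1 rose by 2.85. Of 20 growth factors and receptors 5 rose and 6 fell, or 4 without 2DMono AcDop 2. IGFBP3 stood at 3.75, 5.70, 14.0, 2.72 and 9.03 CPM against 174, 120 and 126 CPM (-5.17). CXCL12 stood at 83.2, 14.8, 129.8, 84.5 and 19.6 CPM against 2.30, 2.54 and 6.40 CPM (3.81). CXCL12 did not overlap but lost its call without 2DMono AcDop 2 (adjusted p = 0.120), Vehic 1 (0.145) or Vehic 2 (0.0536), or 3DMono Vehic 1 (0.0877).

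Of 14 transcription factors tested 3 rose and 0 fell: FOXC1 (3.01), TBX15 (1.99) and OSR1 (3.65), a regulator of kidney and joint mesenchyme. OSR1 stood at 13.8, 5.70, 28.5, 30.8 and 9.03 CPM against 1.15, 1.06 and 1.60 CPM. Without 2DMono Vehic 1 none of them passed (OSR1 adjusted p = 0.0765, FOXC1 0.0630), and FOXC1 also failed without 2DMono AcDop 2 (0.0591). Of 13 immediate-early genes 8 rose and 1, FOSL2, fell (median 2.25), and 6 rose without 2DMono AcDop 2. FOSB stood at 50.1, 41.1, 76.3, 22.9 and 24.4 CPM against 2.30, 0.775 and 8.00 CPM (3.39), and NR4A1, an orphan nuclear receptor, at 304.2, 102, 139.9, 75.2 and 102 CPM against 13.2, 8.53 and 13.4 CPM (3.14). FOS rose by 2.60. These tags did not overlap.

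Hypoxia and glycolysis genes fell for 5 of 14 (3 without 2DMono AcDop 2) and rose for 0. SLC2A1 stood at 6.25, 9.12, 11.8, 6.35 and 9.03 CPM against 163, 80.8 and 81.6 CPM (-4.13). HK2 fell by 1.62, but the tags overlapped and the call was lost without any 1 of 2DMono Vehic 1 (adjusted p = 0.108), 2DMono Vehic 2 (0.0707), 3DMono AcDop 2 (0.0664), 3DMono Vehic 1 (0.172) or 3DMono Vehic 2 (0.126). Of 13 sterol synthesis genes 0 were called higher and 1 lower (median 0.12), where 5.67% of all genes were called higher, so the misses do not show that these genes were level. The difference between this count and that of 3DFusi against 2DCocu was not tested.

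The largest rises without overlap were EMCN, SPATA16, SLC6A12, BMP5 and SLC6A13. EMCN, a sialomucin that also leads sub-cluster 6, stood at 80.8, 23.4, 24.3, 75.9 and 84.7 CPM against 0, 0.611 and 2.57 CPM (6.07). SLC6A13 stood at 211, 34.0, 380, 240.1 and 45.1 CPM against 0, 2.97 and 3.20 CPM (5.58), and was lost without 2DMono AcDop 2 (adjusted p = 0.0833) or Vehic 1 (0.0980). SPATA16 (5.94) was lost without the same tags (0.0740 and 0.127), as was SLC6A12 (5.70; 0.0643 and 0.143), which was also lost without 3DMono Vehic 1 (0.0564). Without 2DMono Vehic 1 the fitted difference of SPATA16 was 8.60 and that of BMP5 10.2 (adjusted p = 0.0258), as the remaining 2DMono tags were at or near 0. The largest falls were ALPK2 (-7.28), GLIS1 (-5.96), the peptide transporter SLC15A1 (-5.69), CRACDL (-5.55) and LINC01239 (-5.33). GLIS1, a leading gene of sub-cluster 4, stood at 1.25, 5.71, 4.53, 3.40 and 7.75 CPM against 311, 74.3 and 279 CPM. Of the genes named here LOX, CCN2, SFRP1 and FOSB were not called with Vehic tags alone, nor CCN2 and SLC6A13 with no filter on low counts.

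Against the other cells of the same tags, 163 of 18559 genes (0.878%) differed in their arrangement difference. The count was 645 with 4 rule genes and 711 without members of 5 or more neuron markers. GLIS1 fell by 0.90 in other cells (difference -4.99, adjusted p = 0.000605) and SLC2A1 by 2.05 (-2.15, 0.0141), both less than in members. NR4A1 (-0.33) and COL14A1 (-0.68) were not called in other cells, and the differences from members were 3.39 (adjusted p = 0.00304) and 4.08 (0.0167). DKK2 fell by 3.87 in other cells, more than in members (1.26, 0.0345). BMP5 (difference 3.15, adjusted p = 0.0682), SLC6A13 (5.06, 0.0717) and CXCL12 (4.28, 0.223) did not pass, and BMP5 rose by 2.36 in other cells too. Of 17 immediate-early genes 1, NR4A1, was more positive in members and 0 more negative, and of 13 contractile genes 0 passed this test. CALD1 was lower by 3.84 on the log2 scale in other cells (difference -0.18), and COL8A1 by 3.63.

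How many members showed a cell type program was compared per tag, after thinning members to 5000 counts so that depth was equal. A program was at least 3 detected genes of a marker list. The meningeal fibroblast program was seen in 6.67% to 25.9% of the members of the 9 3DFusi tags (median 14.5%) and in 0% to 5% of those of the 11 2DCocu tags. Means were 15.2% ± 6.55 (SD, n = 9) and 1.40% ± 1.85 (SD, n = 11), with no overlap. The exact permutation p was 4.08e-05, the smallest the design allows (0.000857 adjusted over 21 tests). All other cells showed the program in 1.53% (3DFusi) and 1.10% (2DCocu), so the 2DCocu members were near that background. With the 3DFusi tags of a number averaged the test still passed (3 numbers against 11 tags, adjusted exact permutation p = 0.0192). Without thinning, the means were 58.1% and 24.0% (adjusted exact permutation p = 0.00171). In 3DMono the tags stood at 16.1%, 11.4%, 42.9%, 30.4% and 10.7%, and in 2DMono at 4.35%, 1.43% and 4.55%. These did not overlap either, but the smallest p an exact permutation test allows there is 0.0556 (adjusted 0.146).

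The chondrogenic program went the other way by this count, at 32.8% ± 14.6 (SD, n = 9) in 3DFusi and 51.5% ± 6.23 (SD, n = 11) in 2DCocu (adjusted exact permutation p = 0.0176, and 0.0192 with 3DFusi tags of a number averaged). All other cells showed it in 32.6% (3DFusi) and 38.1% (2DCocu), so the 3DFusi members were near that background and the count does not measure cartilage-like cells. The call depended on the number of genes required: with 4 genes the difference was 4.25 points in favour of 3DFusi (0.540). The list holds SOX5, SOX6 and COL11A1, which many members of both arrangements carried, as well as COL2A1, ACAN and COL9A1, which few 2DCocu members did. The cycling program was seen in 10.5% ± 9.11 (SD, n = 9) and 5.89% ± 4.04 (SD, n = 11), an adjusted exact permutation p of 0.321. The mural program was seen in 2.15% ± 2.47 (SD, n = 5) of 3DMono and 10.2% ± 2.30 (SD, n = 3) of 2DMono members, without overlap (adjusted exact permutation p = 0.146). The neuron program was seen in 27.1% ± 21.7 of 3DFusi (SD, n = 9) and 24.1% ± 6.44 of 2DCocu members (SD, n = 11), an adjusted exact permutation p of 0.730.

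The 3-D arrangements 3DFusi (6 tags with AcMor or Vehic) and 3DMono (3 tags) were compared in their members by edgeR's test, with 1 gene called of 14657 (0.00682%), while 997 had an unadjusted p under 0.05. The count was 66 with DESeq2, and the fit with the tag number as a block called 12. With 3DFusi tags of the same number summed it was again 1 gene. The gene was TTC6, a leading gene of sub-cluster 5. Over all tags that sub-cluster had 34 cells in 3DFusi and 3 in 3DMono, but 16 of the 34 lay in AcCoc 3, outside this comparison. TTC6 ran from 77.0 to 202 CPM in 3DFusi and stood at 5.04, 4.53 and 1.58 CPM in 3DMono AcMor 1, Vehic 1 and Vehic 2 (log2 difference 5.17, SE 0.43, adjusted p = 0.0030). It was not called without 3DMono Vehic 1 (adjusted p = 0.112), with at least 40 members per tag, with 4 or 6 rule genes, without members of 5 or more neuron markers, or with sub-clusters 1 and 5 left out. No listed gene of any group was called, and no program passed the test. With 3 tags in 3DMono a miss does not show that the members were alike.

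No gene passed edgeR's test between treatment tags in the members, a miss that does not show that there was no effect. AcCoc against Vehic in 3DFusi gave 0 of 16551 genes (0%), with 211 at an unadjusted p under 0.05 and 4 called by DESeq2. AcMor against Vehic in 3DFusi gave 0 (0%; 255 and 0). In 2DCocu, AcCoc against Vehic gave 0 of 11848 (0%; 456 and 0) and AcMor 0 (0%; 359 and 0). The 3DFusi comparisons share their Vehic tags, as do the 2DCocu ones.

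The arrangements without treatment tags are given as levels over their members, with no test. 3DProto1For and 3DProto2Xia had the highest IGF2, at 6081 and 6116 CPM against 1695 in 3DFusi and 496 in 2DCocu. They also had the highest TWIST2 (82.8 and 137 CPM, against 12.6 in 3DFusi and 28.2 in 2DCocu), HGF (71.7 and 96.5 CPM) and HOXD3 (22.5 and 34.1 CPM, against 7.77 in 3DFusi). FN1 was lowest there, at 570.5 and 419.7 CPM, and their FOXC1 was low for 3-D cultures, at 11.3 and 6.81 CPM against 75.5 in 3DFusi and 86.3 in 3DMono. FOS stood at 227 and 225 CPM, in the range of the other 3-D arrangements. 2DProto4Nic stood near 2DCocu in FN1 (6771 and 6357 CPM), CALD1 (821 and 763 CPM, against 2060 in 2DMono) and FOS (10.01 and 11.2 CPM), and had the lowest IGF2 (23.8 CPM). Its members came from both tags, but those of 3DProto2Xia came from 1.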

How the data were processed

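The deposited matrix held expected counts (estimated, not whole) for 60286 genes and 43693 cells, unscaled. The submitters' processing notes name Salmon 1.7.0, alevin, Seurat 4.1.1 and hg38. How reads shared by near-identical or overlapping genes were divided is not given in the sources used here. Such genes, antisense RNAs and LSP1P4 are therefore uncertain. The members and the gene lists were chosen with earlier results of these data known. No cell was removed.

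Expected counts were summed over the members of a culture tag and rounded, and tested with edgeR 4.0.16 (filterByExpr, TMM, glmQLFit with the robust option, glmQLFTest; R 4.3.3, limma 3.58.1) with the treatment tag as covariate and Benjamini-Hochberg adjusted p-values over all genes tested; adjusted p-values of genes in the text are edgeR's. Tags needed at least 20 members. Log2 fold changes are positive where the group named before "against" is higher. Shares were compared by exact permutation within treatment tags. Members were clustered by Leiden on 1500 variable genes, 20 principal components and 15 neighbours at resolution 0.5 (leidenalg 0.10.2, scikit-learn 1.9.0, Python 3.11.15, numpy 2.4.6, scipy 1.17.1, pandas 2.3.3). Figures used matplotlib 3.10.9. Named genes were, per arrangement comparison, the 2 called genes of each list with the largest change and the 5 largest rises and falls without overlap at 20 CPM or more; genes named beside a list's count were chosen after their values were seen, and a few genes that the rule or the lists hold are not reported here. Intervals are exact binomial at 95%, and the limit beside a count of 0 is that of 3 counts; both cover counting error only. The edgeR fits were checked on simulated data.

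Tags of 3DFusi with the same number deviated together. In all 9 such pairs the deviations from the treatment means correlated across 3183 genes (r 0.258 to 0.824, other pairs -0.669 to 0.561). Tags numbered 1 went against those numbered 3 and 4. Pairs of number 3 with 4 also correlated (r 0.141 to 0.561), as did pairs within these numbers (0.258 to 0.615). Pairing by number was therefore not shown for numbers 3 and 4. Blocked values are given where they changed a call. Alternatives were DESeq2 1.42.0, RLE scaling, no filter, other membership rules, thinning, each tag left out, Vehic tags alone and the block. Leaving out members with 5 or more neuron markers or sub-clusters 1 and 5, the comparison with other cells, and averaging or pairing 3DFusi tags of a number for the shares were added after seeing the data.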

Additional observations from a re-analysis of the deposited data

Results flagged for a closer look

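In 85 groups of 4 to 10 tags, the highest or lowest tag stood apart from the rest (Dixon's test) in 7, and chance gives about 1 in 20 groups. Tag 3DFusi AcCoc 3 held 35.0% mesenchymal-like cells, against 2.68% to 17.8% in the other 9 tags. The same tag was highest for the osteogenic program among 9 tags, at 1.37% of members against 0% to 0.690%. CCN2 stood at 34.6 CPM in 3DMono Vehic 2, against 0.905 to 7.46 CPM in the other 4 tags of 3DMono. ELN was lowest in 3DMono AcMor 1, at 2.26 CPM against 10.6 to 12.5 CPM. LINC01239 was highest in 3DMono Vehic 1, at 6.73 CPM against 0.326 to 1.46 CPM, and NR4A1 in 3DMono AcDop 1, at 304.2 CPM against 75.2 to 139.9 CPM. LINC02211 was highest in 3DFusi AcMor 1, at 2.57 CPM against 0.309 to 1.32 CPM.

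The arrangement difference was tested directly between members and all other cells of the same tags. It differed for 2945 of 19942 genes between 3DFusi and 2DCocu and for 163 of 18559 between 3DMono and 2DMono, by edgeR's test at an adjusted p of 0.05.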

How the results depend on the processing

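Tags hold 20 to 523 members, so genes of low count and the smaller 3DMono and 2DMono groups are the least certain. Genes called in mesenchymal-like cells between 3DFusi and 2DCocu numbered 3018 with 6 rule genes, 2901 with same-number 3DFusi tags summed, 991 with Vehic tags alone, 4218 with the replicate block and 4141 to 4703 without any single tag. Between 3DMono and 2DMono they numbered 2374 with no filter, 3006 with 4 rule genes, 597 with Vehic tags alone, 1318 with the block and 584 to 1473 without any single tag. Between 3DFusi and 3DMono they numbered 66 with DESeq2, 410 with no filter, 12 with the block, 0 with 40 members per tag, 4 or 6 rule genes or sub-clusters 1 and 5 left out, and 0 to 4 without any single tag. Drug comparisons gave 4 with DESeq2 for AcCoc in 3DFusi, 1 (AcCoc) and 5 (AcMor) with no filter in 2DCocu, and 0 without any single tag. Other settings stayed within 1.5 times of the reported counts for these 7 comparisons, though the 1 gene called between 3DFusi and 3DMono without members of 5 or more neuron markers was another than TTC6, and lower. The comparison with other cells gave 4565 genes (3DFusi against 2DCocu) with sub-clusters 1 and 5 left out, and for 3DMono against 2DMono 645 with 4 rule genes and 711 without members of 5 or more neuron markers.

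Share differences between 3DFusi and 2DCocu fell short of the threshold at 7.73 (4 rule genes), 4.13 (thinned), 5.68 and 6.42 points (3 and 5 neuron markers). Those between 3DFusi and 3DMono did so at 10.4, 3.79, 5.59 and 7.24 points under the same settings. With 3DFusi tags of a number averaged both missed it too, at 6.26 and 8.24 points. The tendon program then passed in 3DFusi against 2DCocu, at 0.411 points, but this rests on few cells. It was seen in 1.01%, 0.783% and 1.90% of the members of AcCoc 1, 3 and 4. Every other tag tested in these 2 arrangements stood at 0%. The share difference of 3DMono against 2DMono turned to 0.102 with 6 rule genes and 0.114 without 3 neuron markers. It lay from -0.569 to 0.603 without any single tag. That of 3DFusi against 3DMono lay from 7.01 to 9.62 and that of 2DCocu against 2DMono from 1.71 to 3.67, passing without 1 tag of 12. Without any single tag, AcCoc in 3DFusi lay from -1.78 to 8.998, AcMor in 3DFusi from -5.78 to 0.810 and AcMor in 2DCocu from -1.63 to 0.1004 (0.153 with 6 rule genes). Program differences changed sign with 1 more gene required for mural (0.227 against 2DCocu, 0.205 against 3DMono), chondrogenic (4.25) and osteogenic cells (0.0217), and without thinning for mural (7.49) and cycling (0.302) against 3DMono and for neuron (-6.81 in 3DFusi against 2DCocu, -11.6 in 3DMono against 2DMono). Resolution 1.0 gave 16 sub-clusters. Where a setting changed a result the cause was not tested.

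Whether numbers paired the 2DCocu tags was unclear (10 pairs, r -0.0715 to 0.396, 8 over 0.1, other pairs -0.407 to 0.352). The block lost HK2 in 3DMono against 2DMono and no other named gene. Fits of 3DMono against 2DMono with 40 members, 6 rule genes, 3 neuron markers or sub-clusters left out, of 3DFusi against 3DMono with 3 neuron markers left out, and of the comparison with other cells of 3DMono and 2DMono with 6 rule genes or sub-clusters left out could not be fitted, as too few tags remained.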
